A study of Mus musculus with 16 samples.

Results

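The 33 genes described here are imprinted in the mouse, which means that they are known for expression mainly from a single parental copy. They were chosen by name from a list of gene symbols, and all 33 were found among the 35613 genes of the files. By general knowledge of the mouse, 20 of them are expressed from the paternal copy and 12 from the maternal copy, while Gnas gives transcripts of either origin. Some switch or lose the bias in particular tissues. The read counts carry no information on the allele, so parental origin is used as a label and was not measured. Of the 33 genes, 26 are protein-coding, and 8 genomic clusters hold more than 1 of them.

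The 16 RNA-seq libraries are from mouse skeletal muscle cells in culture, all of the Pax7-nGFP genotype, in which a nuclear GFP reports Pax7, the transcription factor of muscle stem cells. Sorted MPC (3 libraries) were GFP+ cells from MPC cultures and were set against sorted myoblasts (3 libraries), which were GFP+ cells from myoblast cultures at passage 5 to 6. Bulk MPC (3 libraries) were whole MPC cultures, and differentiated myoblasts (3 libraries) were cultures at passage 4 to 5 kept for 3 days in differentiation medium with horse serum. Both were set against bulk myoblasts (3 libraries), unsorted cultures at passage 3 in myoblast medium. MPC is not spelled out in the labels, and the title of the series speaks of muscle stem cells made from myoblasts with small molecules. MPC cultures had passed 2 to 3 times as myoblasts and then 5 to 6 times in MPC medium. Its additions were forskolin at 5 µM, which activates adenylyl cyclase, RepSox at 5 µM, which inhibits ALK5 (the type I TGF-beta receptor), and a compound the labels spell CHIR9901 at 3 µM. All these groups came from lines of 16-week-old male mice. A further sorted MPC library (high passage, no replicate) came from a line of a 39-week-old female mouse. Its cells were GFP- myoblasts at passage 8, grown for 2 passages in MPC medium and sorted for GFP. Sorted RNA and unsorted RNA were prepared with different kits, so that kit, medium and passage cannot be told apart from the groups. The labels call the libraries of a group biological replicates and do not name the animal behind each.

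Imprinted genes lie in clusters governed by control regions that carry DNA methylation on a single parental copy. Many of them act on growth: IGF2 is a fetal growth factor, the IGF2 receptor removes it, and GRB10 restrains the insulin and IGF1 receptors. Several are known from muscle, where H19, Igf2 and the Dlk1-Meg3 cluster are active in fetal and regenerating tissue.

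Estimated counts per library ranged from 19300307 to 29127963. Levels are given in CPM, the estimated counts scaled to a common library size after TMM scaling. Where genes are compared with each other they are given in TPM, which is also scaled by transcript length. Markers of endothelium, macrophages and Schwann cells summed to at most 3.98 CPM in any library, with Sox10 at 0 in both kinds of sorted cells and Adgre1 at 0 in sorted MPC, sorted myoblasts and bulk MPC. Fibroblast markers (8 genes) summed to 1213 to 1753 CPM in sorted MPC and 651 to 978 CPM in sorted myoblasts. They summed to 102 to 894 CPM in bulk MPC, where the highest value was that of replicate 2, to 34.1 to 122 CPM in differentiated myoblasts and to 719 to 977 CPM in bulk myoblasts. Markers of pericytes and smooth muscle (5 genes) summed to 345 to 725 CPM in sorted MPC and 276 to 573 CPM in sorted myoblasts. They summed to 192 to 343 CPM in bulk MPC and 875 to 1034 CPM in differentiated myoblasts, against 1081 to 1425 CPM in bulk myoblasts, with none of the 5 at 0 in any group. Of these, Pdgfrb and Myh11 rose in sorted MPC (log2 fold change 4.57 ± 0.97 and 4.44 ± 0.84, edgeR adjusted p = 0.00175 and 7.80e-04) and Rgs5 fell there (-2.58 ± 0.86, adjusted p = 0.0235). The part of other cell types in the values of the imprinted genes was not tested. Lum, a fibroblast marker, was at 0 in every group but bulk MPC and the high-passage library. In cultures of mixed cells, fewer cells of a type and less RNA per cell cannot be told apart. The 33 genes together took 3.28% to 4.02% of all counts in sorted MPC, against 1.5% to 2.37% in sorted myoblasts. They took 3.43% to 3.64% in bulk MPC and 2.58% to 2.96% in differentiated myoblasts, against 2.59% to 2.92% in bulk myoblasts. Per length, H19 and Igf2 had the highest TPM of the list in sorted MPC.

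Of the 33 genes, 29 passed the filter on low counts and were tested; Magel2, Phlda2, Ascl2 and Slc22a18 did not. In sorted MPC against sorted myoblasts, 19 of the 29 rose and 4 fell at an edgeR adjusted p under 0.05, where 26% of all 15533 tested genes were called higher and 22.7% lower. In bulk MPC against bulk myoblasts, 16 rose and 4 fell, beside 28.4% higher and 30.1% lower among all genes. The median log2 fold change of the 29 genes was 1.41 in the sorted comparison and 0.61 in the bulk comparison, and that of all tested genes was 0.091 and -0.015. In differentiated myoblasts, which share the bulk myoblast libraries as their reference with bulk MPC, 8 rose and 8 fell, close to the 25.6% and 28.6% of all genes. There 4 rose without differentiated myoblast replicate 1 or 3 or bulk myoblast replicate 3, and 5 without bulk myoblast replicate 1 or 2, and 5 fell without bulk myoblast replicate 2. Of the maternally expressed genes among the 33, 8 of 9 tested rose in each MPC comparison and none fell. Of these, Meg3, Rian and Mirg lie in a single cluster, and the sorted groups overlapped for Copg2. Of the 19 paternally expressed genes tested, 10 rose and 4 fell in sorted MPC, and 7 rose and 4 fell in bulk MPC. H19 was the maternally expressed gene that passed in neither comparison.

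**Figure D1:**
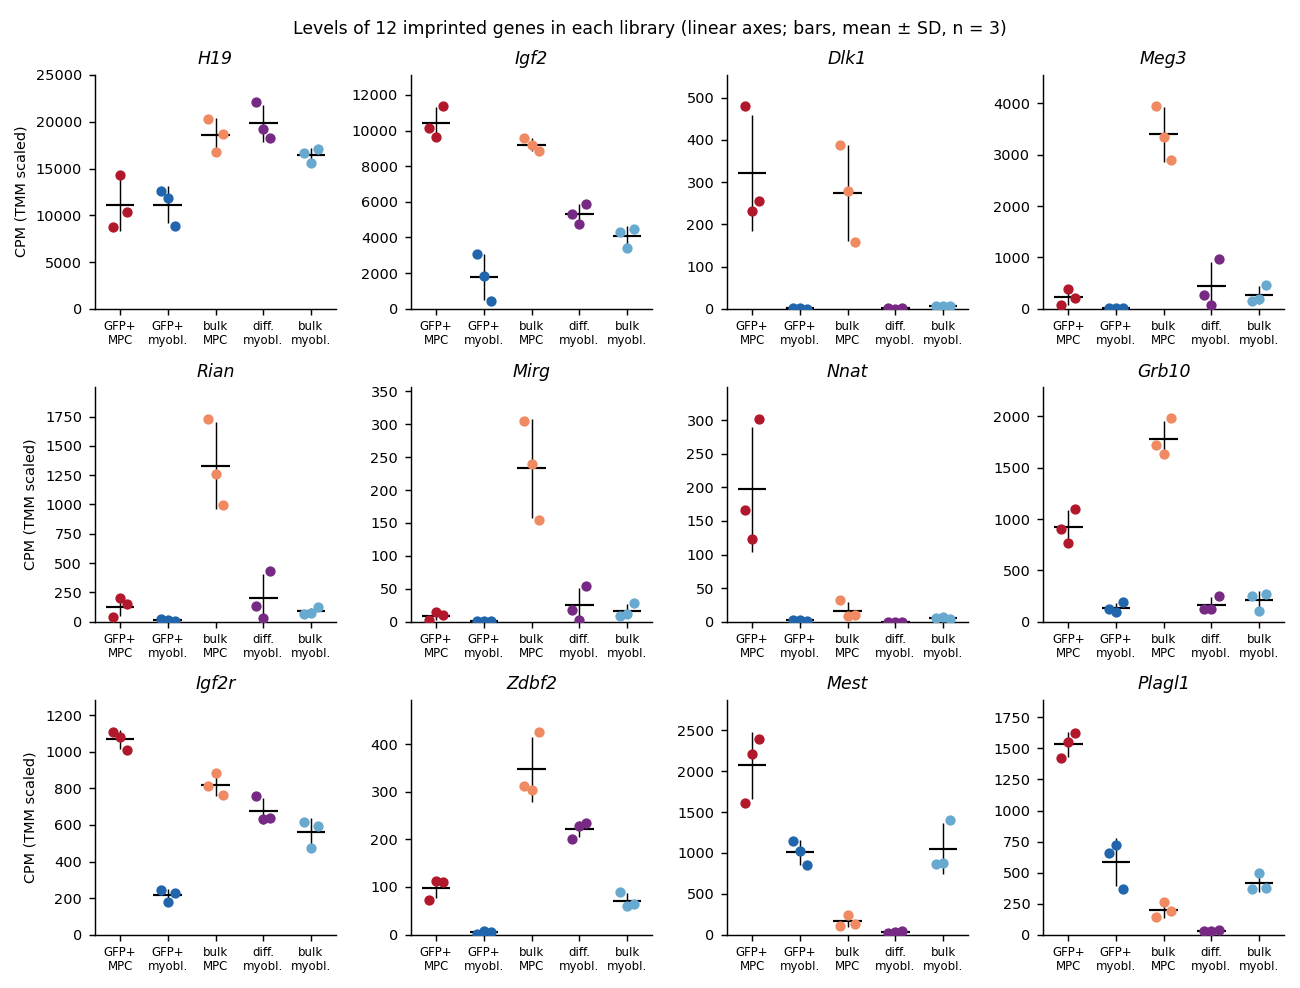
Levels of 12 imprinted genes in each library, in CPM (TMM scaled) on linear axes that start at 0, with a point per library, bars for the mean ± SD (n = 3) and groups along the horizontal axis (GFP+ marks the sorted groups). Dlk1 stands between 159 and 481 CPM in the 6 sorted and bulk MPC libraries and between 0.109 and 7.35 CPM in the other replicated groups, while H19 stays between 8748 and 22079.8 CPM in every replicated library.

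The Dlk1-Meg3 cluster on chromosome 12 rose in MPC with both of its parental sides. It holds the paternally expressed Dlk1, a transmembrane protein with EGF repeats related to Notch ligands, and Rtl1, a protein derived from a retrotransposon. Its maternally expressed noncoding RNAs Meg3, Rian and Mirg host small nucleolar RNAs and microRNAs. In the RefSeq annotation, 14 microRNA hairpins lie on the strand of Mirg within its span, 3 within Rian, and 1 each within Meg3 and Rtl1, with 6 more on the opposite strand of Rtl1. Small RNAs were not analysed here. The promoter windows of Dlk1 and Meg3 are shown because, in the sorted comparison, these genes had the largest fold changes of their cluster on the paternal and the maternal side. Each runs from 250 bases before to 50 bases after a RefSeq start (GRCm38.p6), 5′ to 3′ on the strand of the gene. The Dlk1 window is chr12:109452573-109452872 (+ strand) and the Meg3 window is chr12:109540746-109541045 (+ strand). Capitals mark TGACGTCA, the palindromic cyclic AMP response element, at positions -57 to -50 of Meg3, and its shorter form TGACG at positions -106 to -102 of Dlk1.
Dlk1: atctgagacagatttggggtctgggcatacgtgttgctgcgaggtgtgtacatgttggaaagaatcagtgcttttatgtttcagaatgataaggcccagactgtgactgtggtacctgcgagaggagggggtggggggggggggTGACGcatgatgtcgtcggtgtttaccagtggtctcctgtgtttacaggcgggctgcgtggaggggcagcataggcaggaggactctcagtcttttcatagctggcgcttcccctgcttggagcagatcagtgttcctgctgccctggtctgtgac
Meg3: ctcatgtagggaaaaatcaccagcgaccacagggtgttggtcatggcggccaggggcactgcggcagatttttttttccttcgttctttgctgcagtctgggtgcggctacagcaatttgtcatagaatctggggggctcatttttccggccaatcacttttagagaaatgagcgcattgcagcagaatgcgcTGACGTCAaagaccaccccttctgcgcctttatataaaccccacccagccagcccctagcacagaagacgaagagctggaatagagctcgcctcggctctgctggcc

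Dlk1 had 481, 231 and 255 CPM in sorted MPC and 1.82, 1.95 and 0.334 CPM in sorted myoblasts. It had 387, 278 and 159 CPM in bulk MPC and 2.24, 0.109 and 2.91 CPM in differentiated myoblasts, against 6.11, 7.35 and 5.69 CPM in bulk myoblasts. The groups did not overlap in any of these comparisons, and every MPC library stood far above every other one. Dlk1 was 228-fold higher in sorted MPC than in sorted myoblasts (log2 fold change 7.83 ± 0.69 (SE), edgeR adjusted p = 1.63e-06) and 44.2-fold higher in bulk MPC than in bulk myoblasts (log2 fold change 5.46 ± 0.60 (SE), edgeR adjusted p = 7.85e-06). The levels of sorted and bulk MPC did not differ beyond their spread (log2 fold change 0.20 ± 0.49 (SE), edgeR adjusted p = 0.739). Dlk1 was lower in differentiated than in bulk myoblasts (log2 fold change -1.78 ± 0.63 (SE), edgeR adjusted p = 0.0291), a call lost without differentiated myoblast replicate 1 or 2 or bulk myoblast replicate 1 or 2 (edgeR adjusted p 0.0528 to 0.0738). It was also lower in sorted than in bulk myoblasts (log2 fold change -2.17 ± 0.62 (SE), edgeR adjusted p = 0.0192), which was lost without sorted myoblast replicate 3 (edgeR adjusted p = 0.0654).

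Meg3 had 77.5, 388 and 207 CPM in sorted MPC and 17, 22.4 and 8.44 CPM in sorted myoblasts. In bulk MPC it had 3949, 3343 and 2891 CPM, against 144, 186 and 468 CPM in bulk myoblasts, and differentiated myoblasts had 276, 69.8 and 965 CPM. Bulk MPC stood above all other libraries, and sorted myoblasts below all others. The rise was 14.2-fold in sorted MPC (log2 fold change 3.83 ± 0.86 (SE), edgeR adjusted p = 0.00245) and 13.1-fold in bulk MPC (log2 fold change 3.71 ± 0.84 (SE), edgeR adjusted p = 0.00207). The sorted value was 3.16 without sorted MPC replicate 2, and the bulk value 4.39 without bulk myoblast replicate 3. Unlike Dlk1, Meg3 was 15.5-fold lower in sorted than in bulk MPC (log2 fold change -3.96 ± 0.85 (SE), edgeR adjusted p = 0.00104) and 16.8-fold lower in sorted than in bulk myoblasts (log2 fold change -4.07 ± 0.87 (SE), edgeR adjusted p = 0.0039). Without sorted MPC replicate 2, the first of these values was -4.62, and without bulk myoblast replicate 3 the second was -3.39. The transcript Meg3-201 was listed at 0 in all 6 replicated sorted libraries and held 9.33% of the estimated counts of Meg3 in bulk MPC and 2.31% in bulk myoblasts.

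Rian and Mirg, the RNAs downstream of Meg3, showed a like pattern. Rian had 36.4, 199.7 and 152 CPM in sorted MPC and 19, 17.4 and 5.62 CPM in sorted myoblasts, and 1730.2, 1259 and 998 CPM in bulk MPC against 68.6, 77.9 and 121 CPM in bulk myoblasts. Mirg had 2.02, 14.9 and 10.3 CPM in sorted MPC and 1.06, 1.09 and 0.429 CPM in sorted myoblasts, and 305, 239 and 155 CPM in bulk MPC against 8.79, 11.8 and 28.6 CPM in bulk myoblasts. None of these pairs of groups overlapped. The log2 fold change of Rian was 3.21 ± 0.81 in sorted MPC and 3.93 ± 0.82 in bulk MPC (edgeR adjusted p = 0.00515 and 0.00116), and that of Mirg was 3.37 ± 1.01 and 3.86 ± 0.85 (edgeR adjusted p = 0.0138 and 0.00171). The sorted call of Mirg was lost without sorted MPC replicate 2 (edgeR adjusted p = 0.0544), and its bulk value was 4.53 without bulk myoblast replicate 3. In sorted MPC, replicate 1 was the lowest of the 3 for Meg3, Rian and Mirg and the highest for Dlk1. Rian was also lower in sorted than in bulk MPC (-3.40 ± 0.80, adjusted p = 0.00202), as was Mirg (-4.71 ± 0.90, adjusted p = 3.88e-04).

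Differentiated myoblasts were uneven in these noncoding RNAs. Rian had 135, 34.7 and 434 CPM and Mirg 17.7, 2.95 and 54.4 CPM in them, with replicate 3 the highest each time, as it was for Meg3. Their ranges overlapped those of bulk myoblasts, and neither Meg3 (log2 fold change 0.79 ± 0.76 (SE), edgeR adjusted p = 0.402), Rian (log2 fold change 1.24 ± 0.74 (SE), edgeR adjusted p = 0.175) nor Mirg (log2 fold change 0.68 ± 0.79 (SE), edgeR adjusted p = 0.485) passed the test. Without differentiated myoblast replicate 3 these values were -0.56, -0.0117 and -0.60, and without replicate 2 that of Rian was 1.74 and passed (edgeR adjusted p = 0.043). Bulk MPC were above differentiated myoblasts in Meg3 (log2 fold change 2.92 ± 0.81 (SE), edgeR adjusted p = 0.0108), Rian (log2 fold change 2.69 ± 0.78 (SE), edgeR adjusted p = 0.0133) and Mirg (log2 fold change 3.18 ± 0.83 (SE), edgeR adjusted p = 0.00742). Without differentiated myoblast replicate 3 these values were 4.27, 3.94 and 4.46, and the call of Rian was lost without differentiated myoblast replicate 1 (edgeR adjusted p = 0.0559).

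Among the replicated libraries, Rtl1 was low outside bulk MPC, save in sorted MPC replicate 2. It had 0.459, 7.19 and 0.965 CPM in sorted MPC and 0.224, 0.039 and 0.0477 CPM in sorted myoblasts, and 77.9, 21.1 and 12.7 CPM in bulk MPC against 0.305, 0.387 and 0.544 CPM in bulk myoblasts. Within each MPC group a single library stood above the other 2: replicate 2 of sorted MPC and replicate 1 of bulk MPC. Rtl1 rose in bulk MPC (log2 fold change 6.51 ± 1.10 (SE), edgeR adjusted p = 2.33e-04; 5.38 without bulk MPC replicate 1) and in sorted MPC (log2 fold change 4.62 ± 1.26 (SE), edgeR adjusted p = 0.00835). The sorted call was lost without sorted MPC replicate 2 (edgeR adjusted p = 0.0919), where the value was 2.61, and the value was 5.90 without sorted myoblast replicate 1. Rtl1 was lower in sorted than in bulk MPC (log2 fold change -3.72 ± 0.92 (SE), edgeR adjusted p = 0.00271), with values of -2.59 without bulk MPC replicate 1 and -5.71 without sorted MPC replicate 2. Antisense transcripts cross Rtl1, and whether the counting used the strand is not given in the sources used here.

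Igf2, Igf2r and Grb10, which act on growth factor signalling, rose in MPC, while H19, the neighbour of Igf2 on chromosome 7, did not pass the test. Both genes host microRNAs, whose mature RefSeq sequences (GRCm38.p6, - strand) are shown because they are made from transcripts that here moved apart. The seed, bases 2 to 8, is in capitals. The arms of miR-675 lie in H19 at chr7:142577112-142577133 and chr7:142577078-142577099, and those of miR-483 in Igf2 at chr7:142654968-142654989 and chr7:142654932-142654952. No seed is shared among the 4.
mmu-miR-675-5p: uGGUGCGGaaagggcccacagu
mmu-miR-675-3p: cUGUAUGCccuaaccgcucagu
mmu-miR-483-5p: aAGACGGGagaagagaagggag
mmu-miR-483-3p: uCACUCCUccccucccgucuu

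Igf2 had 10148, 9659.7 and 11396 CPM in sorted MPC and 3054, 1839 and 437 CPM in sorted myoblasts. It had 9559.6, 9178 and 8844 CPM in bulk MPC and 5300.0, 4761 and 5870.1 CPM in differentiated myoblasts, against 4323, 3393 and 4464 CPM in bulk myoblasts. The 6 MPC libraries were the highest of the replicated libraries and sorted myoblast replicate 3 was the lowest. Igf2 rose 5.92-fold in sorted MPC (log2 fold change 2.57 ± 0.46 (SE), edgeR adjusted p = 4.89e-04; 3.20 without sorted myoblast replicate 1). In bulk MPC it was 2.33-fold higher (log2 fold change 1.22 ± 0.44 (SE), edgeR adjusted p = 0.0279), a call lost without bulk MPC replicate 1 or 3 or bulk myoblast replicate 1 or 2 or 3 (edgeR adjusted p 0.0526 to 0.0914). Differentiated myoblasts were above bulk myoblasts in every library, but the difference did not pass (log2 fold change 0.45 ± 0.43 (SE), edgeR adjusted p = 0.393). With only the groups compared it was 0.46 and passed (edgeR adjusted p = 0.0249). Bulk MPC against differentiated myoblasts did not pass either (0.77 ± 0.43, edgeR adjusted p = 0.17), but passed with only the groups compared (0.71, edgeR adjusted p = 0.00382).

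H19, a noncoding RNA, had 8748, 14308 and 10382 CPM in sorted MPC and 12642, 11840.1 and 8864 CPM in sorted myoblasts. It had 20309, 16791 and 18665 CPM in bulk MPC and 22079.8, 19175 and 18309.6 CPM in differentiated myoblasts, against 16626, 15637 and 17096 CPM in bulk myoblasts. The MPC groups overlapped their myoblast groups, and neither the sorted (log2 fold change 0.02 ± 0.19 (SE), edgeR adjusted p = 0.948) nor the bulk difference (log2 fold change 0.22 ± 0.19 (SE), edgeR adjusted p = 0.34) passed. The sign of the sorted difference turned with the scaling, to -0.01 with RLE factors. Sorted MPC were lower than bulk MPC (log2 fold change -0.78 ± 0.19 (SE), edgeR adjusted p = 0.00267), and sorted myoblasts lower than bulk myoblasts (log2 fold change -0.58 ± 0.19 (SE), edgeR adjusted p = 0.0364). The last call was lost without sorted myoblast replicate 2 or 3 or bulk myoblast replicate 1 or 2 or 3 (edgeR adjusted p 0.0576 to 0.135). On the TPM scale, the ratio of H19 to Igf2 was 1.52 to 2.77 in sorted MPC and 7.34 to 36.2 in sorted myoblasts, and 3.28 to 3.87 in bulk MPC and 5.51 to 7.56 in differentiated myoblasts against 6.98 to 8.24 in bulk myoblasts. The MPC ranges lay below those of their myoblast groups.

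Igf2r, the receptor that carries IGF2 to the lysosome, had 1111, 1082 and 1012 CPM in sorted MPC and 245, 177 and 227 CPM in sorted myoblasts. In bulk MPC it had 814, 883 and 764 CPM and in differentiated myoblasts 761, 636 and 639 CPM, against 617, 476 and 594 CPM in bulk myoblasts. Sorted myoblasts stood apart as the lowest group. Igf2r rose 4.97-fold in sorted MPC (log2 fold change 2.31 ± 0.14 (SE), edgeR adjusted p = 7.22e-08) and 1.5-fold in bulk MPC (log2 fold change 0.59 ± 0.13 (SE), edgeR adjusted p = 0.00226). A small rise in differentiated myoblasts (log2 fold change 0.34 ± 0.13 (SE), edgeR adjusted p = 0.0487) was lost without differentiated myoblast replicate 1 or 2 or 3 or bulk myoblast replicate 2 or 3 (edgeR adjusted p 0.0583 to 0.212). Igf2r was 2.62-fold lower in sorted than in bulk myoblasts (log2 fold change -1.39 ± 0.14 (SE), edgeR adjusted p = 7.90e-06). Sorted MPC exceeded bulk MPC slightly (log2 fold change 0.34 ± 0.13 (SE), edgeR adjusted p = 0.0379), a call lost without sorted MPC replicate 1 or 2 or bulk MPC replicate 1 or 3 (edgeR adjusted p 0.0718 to 0.0997).

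Airn, the paternal antisense RNA that silences Igf2r in cis, moved the same way as Igf2r. It had 19.9, 17.8 and 16.8 CPM in sorted MPC and 5.02, 3.12 and 1.48 CPM in sorted myoblasts, and 11.2, 14.2 and 14.4 CPM in bulk MPC against 7.57, 7.35 and 8.27 CPM in bulk myoblasts. Airn rose in sorted MPC (log2 fold change 2.50 ± 0.30 (SE), edgeR adjusted p = 2.05e-05) and in bulk MPC (log2 fold change 0.82 ± 0.28 (SE), edgeR adjusted p = 0.0236), the bulk call being lost without bulk MPC replicate 2 or 3 or bulk myoblast replicate 1 or 2 (edgeR adjusted p 0.0536 to 0.0744). The start of Airn lies within Igf2r on the other strand, so that, with the strand setting of the counting unknown, reads from the shared stretch cannot be assigned with certainty.

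Grb10, the adaptor that restrains insulin and IGF1 receptor signalling, had 902, 769 and 1093 CPM in sorted MPC and 127, 89.8 and 189 CPM in sorted myoblasts. It had 1716, 1630.3 and 1979.7 CPM in bulk MPC and 121, 126 and 249 CPM in differentiated myoblasts, against 249.6, 103 and 266 CPM in bulk myoblasts. All 6 MPC libraries were above all 9 others, and bulk MPC were above sorted MPC. Grb10 rose 6.82-fold in sorted MPC (log2 fold change 2.77 ± 0.39 (SE), edgeR adjusted p = 7.67e-05) and 8.89-fold in bulk MPC (log2 fold change 3.15 ± 0.40 (SE), edgeR adjusted p = 2.22e-05), and did not pass in differentiated myoblasts (log2 fold change -0.25 ± 0.37 (SE), edgeR adjusted p = 0.586). Sorted MPC were lower than bulk MPC (log2 fold change -0.99 ± 0.37 (SE), edgeR adjusted p = 0.0288), which was lost without sorted MPC replicate 1 or 2 or bulk MPC replicate 3 (edgeR adjusted p 0.0686 to 0.0879). In each group the transcript Grb10-201, which encodes 596 residues, held 89.5% to 93.4% of the counts of the gene.

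Genes that work with IGF2 but are not imprinted, a list of 12, gave 6 higher and 2 lower in sorted MPC and 4 higher and 2 lower in bulk MPC. Of all genes, 26% were higher and 22.7% lower in the first case, and 28.4% and 30.1% in the second. The median log2 fold change of the list was 0.55 in sorted MPC and 0.20 in bulk MPC. Igfbp5, an IGF-binding protein, averaged 2276 ± 203 CPM in sorted MPC and 419 ± 219 CPM in sorted myoblasts (log2 fold change 2.44 ± 0.35, edgeR adjusted p = 8.96e-05), and it rose in bulk MPC as well (1.74 ± 0.34, adjusted p = 7.50e-04). Irs1, a substrate of the insulin and IGF1 receptors, rose in bulk MPC (1.28 ± 0.17, edgeR adjusted p = 3.79e-05). Igf2bp1, an RNA-binding protein that binds Igf2 mRNA, fell in sorted MPC (-2.37 ± 0.49, adjusted p = 0.00137) and in bulk MPC (-2.64 ± 0.45, adjusted p = 2.54e-04). Igfbp2 fell in sorted MPC (-3.34 ± 0.47, edgeR adjusted p = 7.48e-05) and was at 0.31 ± 0.42 in bulk MPC (adjusted p = 0.551). In differentiated myoblasts 1 of the 12 rose and 5 fell, where 25.6% of all genes were higher and 28.6% lower.

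Mest and Plagl1 moved in opposite directions in the sorted and the bulk comparison. Mest encodes a protein of the alpha/beta hydrolase family, and its RNA hosts miR-335, shown with the seed in capitals because the level of the host separates the groups (RefSeq, GRCm38.p6, + strand, chr6:30741314-30741336 and chr6:30741354-30741375). The 2 arms have different seeds.
mmu-miR-335-5p: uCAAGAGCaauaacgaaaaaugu
mmu-miR-335-3p: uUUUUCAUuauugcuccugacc

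Mest had 1611, 2209 and 2399 CPM in sorted MPC and 1148, 1025 and 849 CPM in sorted myoblasts. It had 106, 242 and 132 CPM in bulk MPC and 17.6, 35 and 43 CPM in differentiated myoblasts, against 862, 879 and 1408 CPM in bulk myoblasts. Sorted MPC were the highest group and differentiated myoblasts the lowest, and MPC did not overlap myoblasts in either comparison. Mest fell 6.4-fold in bulk MPC (log2 fold change -2.68 ± 0.36 (SE), edgeR adjusted p = 3.48e-05) and 31.4-fold in differentiated myoblasts (log2 fold change -4.97 ± 0.40 (SE), edgeR adjusted p = 9.81e-07). In sorted MPC it was 2.07-fold higher (log2 fold change 1.05 ± 0.34 (SE), edgeR adjusted p = 0.0199), a call lost without sorted MPC replicate 3 or sorted myoblast replicate 2 or 3 (edgeR adjusted p 0.0532 to 0.0633). The difference between the MPC effect in sorted cells and in whole cultures passed its own test (log2 difference 3.73 ± 0.49, edgeR adjusted p = 1.18e-04).

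Plagl1, a zinc-finger transcription factor that restrains proliferation, had 1423, 1550.4 and 1627 CPM in sorted MPC and 659, 724 and 364 CPM in sorted myoblasts. It had 140.1, 261 and 189 CPM in bulk MPC and 27.7, 27.3 and 37.3 CPM in differentiated myoblasts, against 371, 498 and 374 CPM in bulk myoblasts. As with Mest, sorted MPC were the highest and differentiated myoblasts the lowest group. Plagl1 rose in sorted MPC (log2 fold change 1.41 ± 0.25 (SE), edgeR adjusted p = 5.32e-04), fell in bulk MPC (log2 fold change -1.04 ± 0.25 (SE), edgeR adjusted p = 0.00327) and fell 12.8-fold in differentiated myoblasts (log2 fold change -3.68 ± 0.28 (SE), edgeR adjusted p = 8.29e-07). The difference between the MPC effects was 2.45 ± 0.36 on the log2 scale (edgeR adjusted p = 2.37e-04).

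Nnat, neuronatin, a small membrane protein of the endoplasmic reticulum, had 166, 124 and 302 CPM in sorted MPC and 2.91, 2.03 and 0.429 CPM in sorted myoblasts. It had 31.6, 7.96 and 10.3 CPM in bulk MPC and no count in the 3 libraries of differentiated myoblasts, against 5.16, 6.52 and 3.92 CPM in bulk myoblasts. The sorted MPC stood above every other library, and bulk MPC replicate 1 stood above the other 2 of its group. Nnat rose 107-fold in sorted MPC (log2 fold change 6.74 ± 0.71 (SE), edgeR adjusted p = 1.75e-05). Differentiated myoblasts were at least 97.9-fold lower than bulk myoblasts, from a limit of 3 counts over the group. The rise in bulk MPC (log2 fold change 1.73 ± 0.58 (SE), edgeR adjusted p = 0.024) was lost without bulk MPC replicate 1 or bulk myoblast replicate 1 or 3 (edgeR adjusted p 0.0645 to 0.177), and without bulk MPC replicate 1 its value was 0.87. Sorted MPC were 11.5-fold above bulk MPC (log2 fold change 3.52 ± 0.59 (SE), edgeR adjusted p = 2.44e-04; 4.38 without bulk MPC replicate 1).

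Markers of dividing and of Pax7-expressing cells differed between the groups as well. Pax7 averaged 775 ± 149 CPM in sorted MPC and 918 ± 80.1 CPM in sorted myoblasts, and 86.2 ± 45.4 CPM in bulk MPC and 44 ± 19.3 CPM in differentiated myoblasts against 585 ± 69.2 CPM in bulk myoblasts. Mki67, a proliferation marker, averaged 805 ± 112 CPM in sorted MPC and 319.5 ± 81.9 CPM in sorted myoblasts, and 90.9 ± 58.3 CPM in bulk MPC and 2.56 ± 1.37 CPM in differentiated myoblasts against 183 ± 10.2 CPM in bulk myoblasts. Myh3, the embryonic myosin heavy chain, averaged 284 ± 135 CPM in sorted MPC and 78.5 ± 12.2 CPM in sorted myoblasts. It averaged 19738 ± 2619.8 CPM in bulk MPC and 25056 ± 2811 CPM in differentiated myoblasts against 8188 ± 1527 CPM in bulk myoblasts. Of the 12 muscle state genes, 7 rose and 3 fell in sorted MPC and 3 rose and 6 fell in bulk MPC. The shares of all genes were 26% higher and 22.7% lower in sorted MPC, and 28.4% and 30.1% in bulk MPC. The part of the mix of dividing and differentiated cells in the values of the imprinted genes was not tested.

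**Figure D2:**
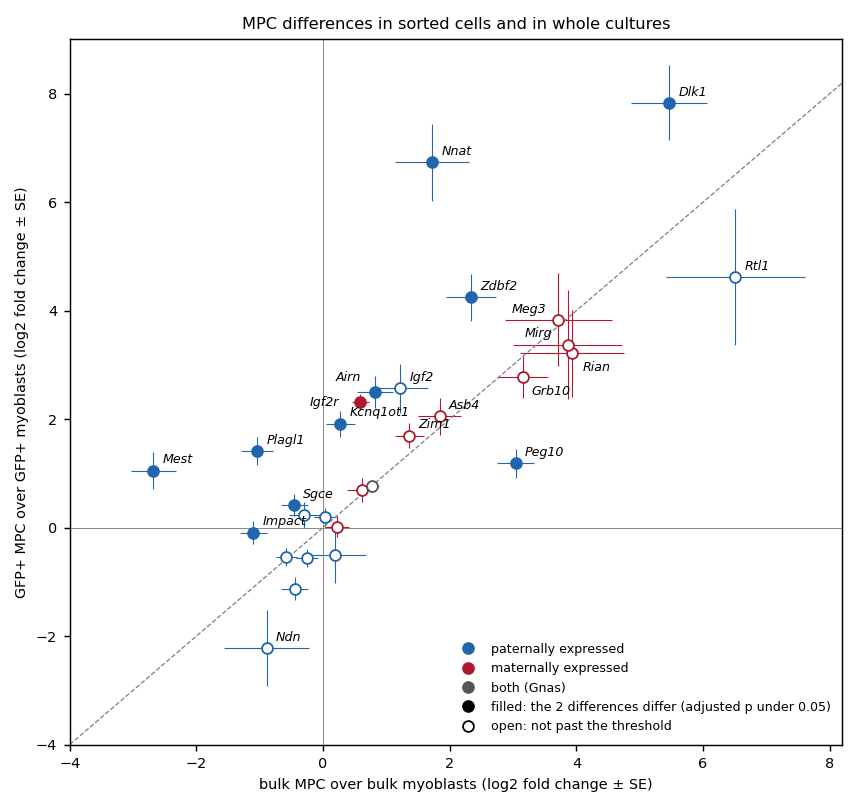
MPC effect (log2 fold change) in bulk cultures and in sorted cells for the 29 tested imprinted genes, with a point per gene coloured by parental class, bars for the SE, and filled points where the difference of the 2 effects passed its test. Mest and Plagl1 lie above 0 for sorted cells and below 0 for bulk cultures, and Dlk1 lies highest for sorted cells at 7.83 ± 0.69 (SE).

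The total of Gnas, which encodes the stimulatory G protein alpha subunit, rose in all 3 comparisons with myoblasts, but its start sites differed more than its total. It had 1181, 1474 and 1244 CPM in sorted MPC and 763, 764 and 782 CPM in sorted myoblasts, and 1464, 1299 and 1387 CPM in bulk MPC and 1164, 1189.7 and 1204 CPM in differentiated myoblasts against 791, 804 and 897 CPM in bulk myoblasts. The rise was 1.7-fold in sorted MPC (log2 fold change 0.77 ± 0.10 (SE), edgeR adjusted p = 6.07e-05), 1.72-fold in bulk MPC (log2 fold change 0.78 ± 0.10 (SE), edgeR adjusted p = 3.85e-05) and 1.49-fold in differentiated myoblasts (log2 fold change 0.58 ± 0.10 (SE), edgeR adjusted p = 4.47e-04). With counts scaled by transcript length the bulk MPC call was lost (log2 fold change 0.17, edgeR adjusted p = 0.174), and sorted MPC were above bulk MPC (0.51, adjusted p = 5.1e-04). The starts of the annotated transcripts fall into 3 sets. The maternally expressed Nesp start has 5 transcripts, the paternally expressed XL start lies 13539 bases downstream and has 7, and 12 transcripts, among them those of the G protein subunit, begin later, between 43250 and 60330 bases downstream of the first. The longest protein is 253 residues from the Nesp start (Gnas-211) and 1119 residues from the XL start (Gnas-203).

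Transcripts from the Nesp start had 15.2, 30.9 and 18.7 CPM in sorted MPC and 0.821, 0.473 and 0.776 CPM in sorted myoblasts. They had 574, 408 and 363 CPM in bulk MPC and 149, 106 and 142 CPM in differentiated myoblasts, against 79.3, 55 and 102 CPM in bulk myoblasts. The order of the groups was the same for the XL start, with 5.01, 24.4 and 8.2 CPM in sorted MPC and 0.622, 1.42 and 0.349 CPM in sorted myoblasts, and 251, 273 and 386 CPM in bulk MPC and 46.1, 69.9 and 38.8 CPM in differentiated myoblasts against 29.4, 22.4 and 37.5 CPM in bulk myoblasts. In bulk MPC these starts held 32.8% and 22.2% of the counts of Gnas, in sorted MPC 1.67% and 0.970%. The later starts had 1155, 1410.4 and 1211 CPM in sorted MPC and 758, 758 and 777 CPM in sorted myoblasts, and 624, 604 and 623 CPM in bulk MPC and 957, 1003 and 1012 CPM in differentiated myoblasts against 677, 722 and 752 CPM in bulk myoblasts. In the later starts alone, the 3 bulk MPC libraries lay below the 3 bulk myoblast libraries, the opposite of the total. These transcripts share their downstream exons, so their split is an estimate of the counting tool, and no test was run on it.

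**Figure D3:**
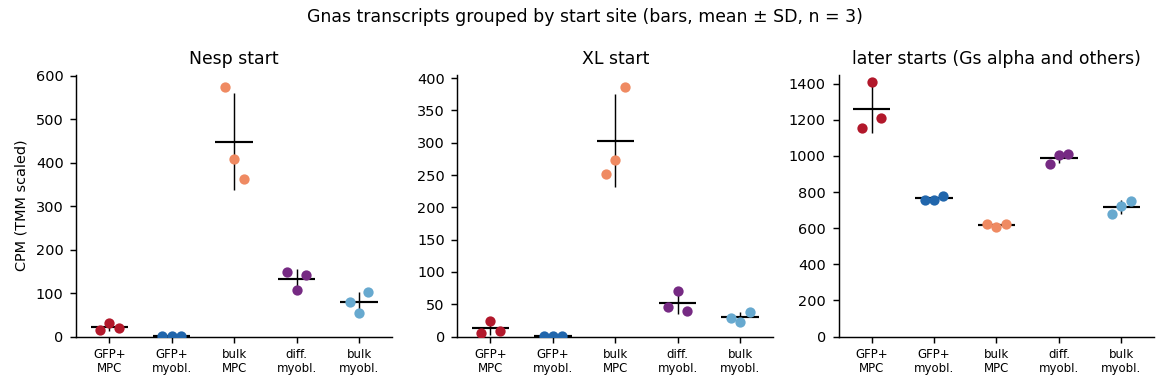
Estimated counts of Gnas transcripts by start, in CPM (TMM scaled), with a point per library, bars for the mean ± SD (n = 3) and groups along the horizontal axis. The Nesp start stands at 363 to 574 CPM in bulk MPC and at 0.473 to 0.821 CPM in sorted myoblasts, while the later starts stay between 604 and 1410.4 CPM in all replicated libraries.

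The Peg3 cluster on chromosome 7 held a maternal gene that rose in MPC and 2 paternal genes that did not pass there. Peg3, a zinc-finger protein expressed in muscle progenitors, was abundant in every group, and its window is shown because it also holds TGACGTCA. The window is chr7:6730370-6730669 on the - strand (RefSeq, GRCm38.p6), with TGACGTCA in capitals at positions -178 to -171 from the start. It overlaps the window of Usp29, which is transcribed from the other strand and holds the same match.
Peg3: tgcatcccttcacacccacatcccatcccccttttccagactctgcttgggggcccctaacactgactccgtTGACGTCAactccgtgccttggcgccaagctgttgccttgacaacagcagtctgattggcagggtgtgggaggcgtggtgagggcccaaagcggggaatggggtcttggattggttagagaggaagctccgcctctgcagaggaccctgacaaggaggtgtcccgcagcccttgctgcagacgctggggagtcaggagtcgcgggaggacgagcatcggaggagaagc

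Peg3 had 1817, 1855 and 2004 CPM in sorted MPC and 1920.2, 1893 and 1209 CPM in sorted myoblasts. It had 1915, 1530.3 and 1847 CPM in bulk MPC and 1238, 919 and 1180.3 CPM in differentiated myoblasts, against 1682, 1886 and 1768 CPM in bulk myoblasts. The MPC groups overlapped their myoblast groups and neither difference passed (log2 fold change 0.19 ± 0.17 (SE), edgeR adjusted p = 0.377 in sorted MPC; log2 fold change 0.03 ± 0.17 (SE), edgeR adjusted p = 0.881 in bulk MPC), whereas differentiated myoblasts were below all bulk myoblasts (log2 fold change -0.61 ± 0.17 (SE), edgeR adjusted p = 0.00834). Usp29, which encodes a protein of the ubiquitin protease family, gave 0.23 ± 0.24 in sorted MPC, -0.30 ± 0.24 in bulk MPC and -0.68 ± 0.24 in differentiated myoblasts, of which the last passed (adjusted p = 0.0309) and was lost without differentiated myoblast replicate 2 or bulk myoblast replicate 2 or 3 (edgeR adjusted p 0.0583 to 0.126). Zim1, a maternally expressed zinc-finger gene, had 451, 387 and 360.1 CPM in sorted MPC and 148, 143 and 82.7 CPM in sorted myoblasts, and 420.2, 308 and 364 CPM in bulk MPC and 164, 103 and 156 CPM in differentiated myoblasts against 133, 137 and 167 CPM in bulk myoblasts. Zim1 rose in sorted MPC (log2 fold change 1.70 ± 0.22 (SE), edgeR adjusted p = 4.65e-05) and bulk MPC (log2 fold change 1.36 ± 0.22 (SE), edgeR adjusted p = 1.78e-04), with no overlap between MPC and myoblasts, and did not pass in differentiated myoblasts (0.02 ± 0.22, adjusted p = 0.954).

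Zdbf2, a paternally expressed gene with a DBF4-type zinc finger, rose in every comparison with myoblasts, and the window of its downstream start is shown because it also holds TGACGTCA. The window is chr1:63273019-63273318 on the + strand (RefSeq, GRCm38.p6), and the motif is at positions -59 to -52.
Zdbf2: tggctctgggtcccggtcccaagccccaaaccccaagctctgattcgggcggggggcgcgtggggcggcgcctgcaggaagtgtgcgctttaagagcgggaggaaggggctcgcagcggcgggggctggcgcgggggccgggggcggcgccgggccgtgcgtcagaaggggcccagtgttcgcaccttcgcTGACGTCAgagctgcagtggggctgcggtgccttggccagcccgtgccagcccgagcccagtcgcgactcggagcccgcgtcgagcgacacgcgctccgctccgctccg

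Zdbf2 had 72.4, 112 and 111 CPM in sorted MPC and 1.54, 8.16 and 6.2 CPM in sorted myoblasts. It had 312, 304 and 427 CPM in bulk MPC and 202, 229 and 235 CPM in differentiated myoblasts, against 89.7, 59.2 and 64.7 CPM in bulk myoblasts. Bulk MPC were the highest and sorted myoblasts by far the lowest group. The rise was 19-fold in sorted MPC (log2 fold change 4.24 ± 0.44 (SE), edgeR adjusted p = 5.98e-06), 5.05-fold in bulk MPC (log2 fold change 2.34 ± 0.39 (SE), edgeR adjusted p = 2.22e-04) and 3.26-fold in differentiated myoblasts (log2 fold change 1.71 ± 0.38 (SE), edgeR adjusted p = 0.00218). Sorted cells were lower than their whole cultures, both in MPC (log2 fold change -1.87 ± 0.38 (SE), edgeR adjusted p = 7.42e-04) and in myoblasts (log2 fold change -3.77 ± 0.43 (SE), edgeR adjusted p = 2.98e-05).

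TGACGTCA, searched on both strands, lies in 1.79% of all 32851 RefSeq promoter windows of 300 bases and in 4 of the 42 windows of the imprinted genes, those of Meg3, Peg3, Usp29 and Zdbf2. The windows of Peg3 and Usp29 overlap and hold the same match, so that site is counted in both. Windows were at hand for 27 of the 33 genes, some with several starts, and windows of the same gene can overlap, as at Gnas and Mest. TGACG, which every TGACGTCA contains, lies in 20.8% of all windows and in 16 of the 42 windows, from 13 genes. The E-box CANNTG, the site class of myogenic regulators, lies in 72.3% of all windows and in 27 of the 42, and its form CAGCTG in 16.3% of all and in 2 of the 42, at Mest and Phlda2. The windows of the imprinted genes held a median of 13 CpG sites and all windows a median of 7. These are matches of letters in a fixed window and say nothing of binding.

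The Peg10 cluster on chromosome 6 rose unevenly. Peg10, a paternally expressed protein derived from a retrotransposon, had 757, 979 and 1267 CPM in sorted MPC and 383, 508 and 440.4 CPM in sorted myoblasts, and 3589, 2016 and 1868 CPM in bulk MPC and 768, 511 and 1001 CPM in differentiated myoblasts against 321, 294 and 316 CPM in bulk myoblasts. It rose 2.27-fold in sorted MPC (log2 fold change 1.18 ± 0.27 (SE), edgeR adjusted p = 0.00309), 8.23-fold in bulk MPC (log2 fold change 3.04 ± 0.29 (SE), edgeR adjusted p = 2.84e-06) and 2.56-fold in differentiated myoblasts (log2 fold change 1.36 ± 0.28 (SE), edgeR adjusted p = 0.00107), with no overlap in any of the 3. Asb4, a maternally expressed ankyrin repeat protein, rose in sorted MPC (log2 fold change 2.06 ± 0.34 (SE), edgeR adjusted p = 2.81e-04) and in bulk MPC (log2 fold change 1.84 ± 0.34 (SE), edgeR adjusted p = 4.67e-04). Its smaller rise in differentiated myoblasts (log2 fold change 0.92 ± 0.34 (SE), edgeR adjusted p = 0.0341) was lost without differentiated myoblast replicate 1 or 3 or bulk myoblast replicate 1 or 3 (edgeR adjusted p 0.0642 to 0.118). Sgce, the paternally expressed epsilon-sarcoglycan of the membrane complex of muscle, had 42.2, 40.5 and 40.4 CPM in sorted MPC and 24.2, 26.3 and 42.5 CPM in sorted myoblasts, and 9.2, 15.1 and 11 CPM in bulk MPC and 5.97, 6.71 and 6.74 CPM in differentiated myoblasts against 15.6, 18.6 and 15.7 CPM in bulk myoblasts. It passed in neither MPC comparison (0.41 ± 0.21 and -0.46 ± 0.21, edgeR adjusted p = 0.115 and 0.0797) and fell in differentiated myoblasts (log2 fold change -1.29 ± 0.22 (SE), edgeR adjusted p = 2.74e-04). The sorted difference was 0.72 and passed without sorted myoblast replicate 3 (edgeR adjusted p = 0.00393). The bulk difference was -0.66 and passed without bulk MPC replicate 2 (edgeR adjusted p = 0.0226), and it was -0.48 with replicate numbers as pairs of bulk MPC and bulk myoblasts (edgeR adjusted p = 0.0343). Sgce was the 1 gene of the 29 called higher in sorted than in bulk myoblasts, with 2 called without sorted myoblast replicate 3 (log2 fold change 0.89 ± 0.21 (SE), edgeR adjusted p = 0.00672), where 12.7% of all genes were higher and 17.4% lower and 8 of the 29 were lower.

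The Ndn-Snrpn cluster on chromosome 7 did not rise in MPC. Ndn, necdin, a MAGE family protein that promotes myogenic differentiation, had 4.91, 6.72 and 4.5 CPM in sorted MPC and 19.5, 29.3 and 26.9 CPM in sorted myoblasts, and 26.1, 2.32 and 1.83 CPM in bulk MPC and 11.4, 12.3 and 12.2 CPM in differentiated myoblasts against 19.6, 18.4 and 19.7 CPM in bulk myoblasts. It fell 4.65-fold in sorted MPC (log2 fold change -2.22 ± 0.70 (SE), edgeR adjusted p = 0.0188), a call lost without sorted MPC replicate 1 or 3 (edgeR adjusted p 0.0538 to 0.0584). Bulk MPC replicate 1 stood far above replicates 2 and 3 of its group, and the bulk difference did not pass (log2 fold change -0.89 ± 0.67 (SE), edgeR adjusted p = 0.274). Without bulk MPC replicate 1 it was -3.16 and passed (edgeR adjusted p = 2.3e-06). Ndn was lower in all differentiated than in all bulk myoblast libraries, but this difference did not pass (-0.62 ± 0.67, edgeR adjusted p = 0.453). With only the groups compared, Ndn was at -0.62 there and passed (edgeR adjusted p = 5.31e-04). Magel2, its neighbour and relative, had 189, 6 and 0 estimated counts in the bulk MPC libraries and at most 0.161 CPM in each sorted MPC library, and was not tested. Snrpn, which encodes the spliceosomal protein SmN, had 1.51, 14.8 and 7.44 CPM in sorted MPC and 11.8, 12.6 and 9.91 CPM in sorted myoblasts, and 30.7, 14.9 and 15.6 CPM in bulk MPC and 44.7, 41.8 and 42.8 CPM in differentiated myoblasts against 18.6, 16.3 and 20.5 CPM in bulk myoblasts. It passed in neither MPC comparison (-0.51 ± 0.51 and 0.19 ± 0.49, adjusted p = 0.425 and 0.765), but was -1.34 and passed in the sorted one without sorted MPC replicate 2 (edgeR adjusted p = 0.0363). Its rise in differentiated myoblasts (log2 fold change 1.29 ± 0.50 (SE), edgeR adjusted p = 0.0415) was lost without any of the 6 libraries compared (edgeR adjusted p 0.073 to 0.115). Bulk MPC replicate 1 was the highest of its group for 18 of the 29 genes, among them Ndn, Snrpn, Nnat, Peg10, Rtl1 and Meg3. Other groups were uneven as well. Bulk myoblast replicate 3 was the highest for 16 of 29 genes, differentiated myoblast replicate 3 for 15 of 28 and sorted myoblast replicate 1 for 14 of 29. No share over all genes is at hand for these counts, so they are not read as a trait of the imprinted genes.

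Of the 33 genes, 4 lie in the Kcnq1 cluster on chromosome 7, and of these only Kcnq1ot1 was expressed highly enough to be tested. Imprinted genes outside the 33, Kcnq1 itself among them, belong to the further list below and are not covered by this statement. Kcnq1ot1, the paternal antisense RNA that silences the cluster in cis, had 22.4, 33 and 25.1 CPM in sorted MPC and 8.07, 6.99 and 6.44 CPM in sorted myoblasts, and 8.17, 11.9 and 12.3 CPM in bulk MPC against 11.8, 7.25 and 8.38 CPM in bulk myoblasts. It rose in sorted MPC (log2 fold change 1.92 ± 0.24 (SE), edgeR adjusted p = 2.88e-05) and overlapped in the bulk groups (log2 fold change 0.27 ± 0.23 (SE), edgeR adjusted p = 0.331). It runs through Kcnq1 on the other strand, with the same doubt on shared reads. Phlda2, which restrains placental growth, had 5, 35 and 2 estimated counts in sorted MPC and none in sorted myoblasts, at least 15.5-fold higher from a limit of 3 counts over the group (at least 3.89-fold without sorted MPC replicate 2), and none in bulk MPC. Ascl2, a helix-loop-helix transcription factor, and Slc22a18, a membrane transporter, stayed under the filter in every group.

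Of the remaining paternally expressed genes, none rose in MPC, and Copg2, a maternally expressed subunit of the COPI coat that overlaps the end of Mest, did. Copg2 and Mest lie on opposite strands and overlap, so that, with the strand setting of the counting unknown, reads from the shared stretch cannot be assigned with certainty. Copg2 had 64.9, 113 and 55.4 CPM in sorted MPC and 42.7, 43 and 59.9 CPM in sorted myoblasts, which overlapped, and 97.4, 90.3 and 80.9 CPM in bulk MPC against 63.5, 51.4 and 66.3 CPM in bulk myoblasts. The sorted rise (log2 fold change 0.69 ± 0.22 (SE), edgeR adjusted p = 0.0208) was lost without sorted MPC replicate 2 or sorted myoblast replicate 1 or 2 (edgeR adjusted p 0.0803 to 0.134), and the bulk rise (log2 fold change 0.61 ± 0.22 (SE), edgeR adjusted p = 0.0313) without bulk MPC replicate 1 or 2 or bulk myoblast replicate 1 or 2 (edgeR adjusted p 0.0515 to 0.117). Impact, a regulator of the kinase GCN2, had 62.7, 54.9 and 74.3 CPM in sorted MPC and 73.5, 90.5 and 42.2 CPM in sorted myoblasts (log2 fold change -0.09 ± 0.21 (SE), edgeR adjusted p = 0.738), and 42.6, 41.5 and 31.3 CPM in bulk MPC and 49.5, 49.2 and 53.7 CPM in differentiated myoblasts against 80.4, 96.2 and 77.7 CPM in bulk myoblasts. It fell in bulk MPC (log2 fold change -1.10 ± 0.21 (SE), edgeR adjusted p = 6.45e-04) and in differentiated myoblasts (log2 fold change -0.67 ± 0.21 (SE), edgeR adjusted p = 0.0158), the last being lost without bulk myoblast replicate 2 (edgeR adjusted p = 0.0633).

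Peg13, a noncoding RNA inside Trappc9, had 6.19, 5.12 and 6.63 CPM in sorted MPC and 17.5, 13.3 and 8.53 CPM in sorted myoblasts, and 9.61, 9.98 and 8.67 CPM in bulk MPC and 40.8, 30.5 and 28.9 CPM in differentiated myoblasts against 13.1, 13.1 and 13.6 CPM in bulk myoblasts. It fell in sorted MPC (log2 fold change -1.12 ± 0.21 (SE), edgeR adjusted p = 7.79e-04) and rose in differentiated myoblasts (log2 fold change 1.40 ± 0.21 (SE), edgeR adjusted p = 1.09e-04). In bulk MPC the difference did not pass (log2 fold change -0.45 ± 0.21 (SE), edgeR adjusted p = 0.0806). It was -0.45 and passed with only the groups compared (edgeR adjusted p = 0.0107). With replicate numbers as pairs in that fit it was -0.45 and passed as well (edgeR adjusted p = 0.0259). The retrogenes Mcts2 and Zrsr1 lie inside H13 and Commd1 and have close copies elsewhere in the genome, so their counts are uncertain. Zrsr1 was lower in sorted MPC (-0.54 ± 0.16, edgeR adjusted p = 0.014) and bulk MPC (-0.58 ± 0.16, adjusted p = 0.00771), and Mcts2 in sorted MPC (-0.56 ± 0.17, adjusted p = 0.0164). The sorted calls were lost without sorted myoblast replicate 2 (edgeR adjusted p = 0.0762) for Zrsr1 and without sorted MPC replicate 2 or sorted myoblast replicate 1 (edgeR adjusted p 0.0508 to 0.0644) for Mcts2. Zrsr1 rose in differentiated myoblasts (0.44 ± 0.16, adjusted p = 0.0329), which was lost without any of the 6 libraries compared (edgeR adjusted p 0.0564 to 0.099).

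**Figure D4:**
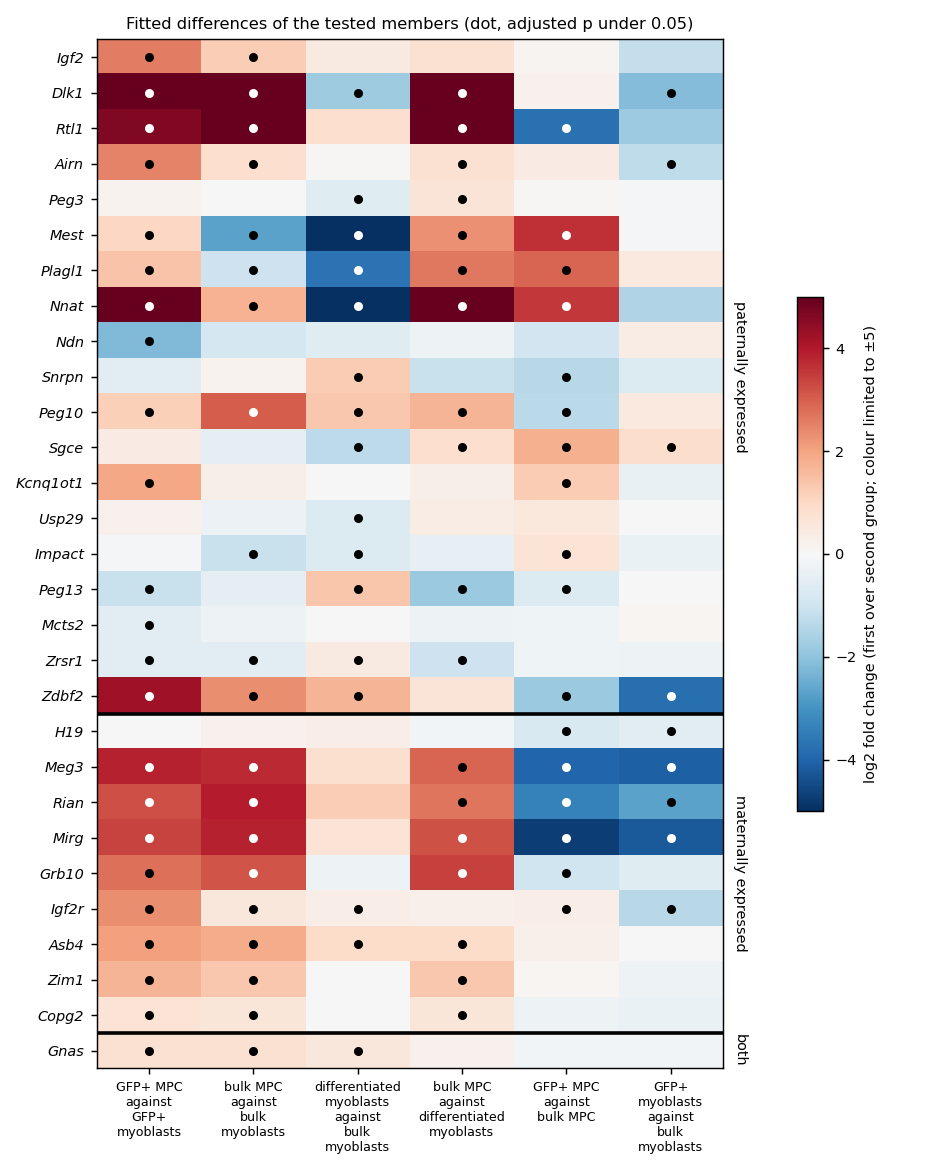
Log2 fold changes of the 29 tested imprinted genes (rows) in 6 comparisons (columns), in colour limited to ±5, with a dot for each call at an edgeR adjusted p under 0.05. In the 2 MPC columns against myoblasts, 19 and 16 of the 29 genes are called higher and 4 each lower.

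Bulk MPC were also set against differentiated myoblasts. They were higher in 16 of the 29 genes and lower in 2 (4 without bulk MPC replicate 1), where 24.4% of all genes were higher and 19.4% lower, with medians of 0.77 for the list and 0.065 for all genes. The largest differences were in Nnat, at least 332-fold higher in bulk MPC from the limit of 3 counts over the group (at least 174-fold without bulk MPC replicate 1), and Dlk1 (log2 fold change 7.24 ± 0.68 (SE), edgeR adjusted p = 5.81e-06). Grb10 (log2 fold change 3.40 ± 0.40 (SE), edgeR adjusted p = 2.78e-05), Plagl1 (log2 fold change 2.65 ± 0.27 (SE), edgeR adjusted p = 9.46e-06) and Mest (log2 fold change 2.30 ± 0.35 (SE), edgeR adjusted p = 2.21e-04) were higher as well. Peg13 (log2 fold change -1.85 ± 0.21 (SE), edgeR adjusted p = 2.37e-05) and Zrsr1 (log2 fold change -1.02 ± 0.16 (SE), edgeR adjusted p = 2.89e-04) were lower. Of the smaller rises, those of Airn, Asb4 and Copg2 were lost without bulk MPC replicate 2 or 3 or differentiated myoblast replicate 1 or 2 or 3 (edgeR adjusted p 0.081 to 0.119), without bulk MPC replicate 1 or 3 or differentiated myoblast replicate 1 or 2 (edgeR adjusted p 0.0645 to 0.126) and without any of the 6 libraries compared (edgeR adjusted p 0.0572 to 0.0991).

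Sorted MPC were higher than bulk MPC in 7 of the 29 genes and lower in 10, no larger a share than among all genes in the first case and a like share in the second, where 32.9% of all genes were higher and 33.7% lower. Those higher were Mest (log2 fold change 3.66 ± 0.37 (SE), edgeR adjusted p = 1.55e-06), Nnat, Plagl1 (log2 fold change 2.93 ± 0.27 (SE), edgeR adjusted p = 6.51e-07), Sgce (log2 fold change 1.76 ± 0.21 (SE), edgeR adjusted p = 8.00e-06), Kcnq1ot1 (log2 fold change 1.28 ± 0.23 (SE), edgeR adjusted p = 2.95e-04), Impact (log2 fold change 0.69 ± 0.21 (SE), edgeR adjusted p = 0.0104) and Igf2r. Those lower were Meg3, Rian, Mirg, Rtl1, H19, Grb10, Zdbf2, Peg10 (log2 fold change -1.35 ± 0.28 (SE), edgeR adjusted p = 6.70e-04), Peg13 (log2 fold change -0.70 ± 0.21 (SE), edgeR adjusted p = 0.011) and Snrpn (log2 fold change -1.40 ± 0.51 (SE), edgeR adjusted p = 0.0263). The call of Snrpn was lost without sorted MPC replicate 3 or bulk MPC replicate 1 (edgeR adjusted p 0.0717 to 0.128) and its value was -2.22 without sorted MPC replicate 2. In myoblasts, those lower in sorted than in bulk libraries were H19, Dlk1, Meg3, Rian (log2 fold change -2.68 ± 0.79 (SE), edgeR adjusted p = 0.0223), Mirg (log2 fold change -4.22 ± 1.00 (SE), edgeR adjusted p = 0.00744), Igf2r, Airn (log2 fold change -1.26 ± 0.29 (SE), edgeR adjusted p = 0.00638) and Zdbf2. The call of Rian was lost without sorted myoblast replicate 3 or bulk myoblast replicate 3 (edgeR adjusted p 0.0744 to 0.0846), and the value of Mirg was -3.54 without bulk myoblast replicate 3.

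The MPC effect itself was compared between sorted cells and whole cultures. The difference passed for 11 of the 29 genes, 10 of them with a higher value in sorted cells and 1, Peg10, with a lower one (2 without sorted myoblast replicate 3), where 20.3% of all genes were called higher and 16.8% lower. Of these 11 genes, 10 are expressed from the paternal copy and 1, Igf2r, from the maternal copy, beside 19 paternal and 9 maternal genes tested. Igf2 (log2 difference 1.35 ± 0.61, edgeR adjusted p = 0.102) and Meg3 (0.12 ± 1.08, adjusted p = 0.947) did not pass. For Igf2 the difference was 1.99 without sorted myoblast replicate 1 and 0.89 without replicate 3, and passed in both cases (edgeR adjusted p = 0.0143 and 0.0216). Between the comparisons of sorted and bulk cells, 16 genes were called higher in both (16 of 19 sorted and 16 of 16 bulk calls), as were 12.9% of all genes, Zrsr1 was called lower in both, and Mest and Plagl1 were called in opposite directions.

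Of a list of 39 further imprinted genes, 29 were tested. Of these, 13 rose and 8 fell in sorted MPC, and 10 rose and 8 fell in bulk MPC, the bulk counts being close to the shares of all genes given above, with medians of 0.34 in each. Cdkn1c, a maternally expressed inhibitor of cyclin-dependent kinases, averaged 1144 ± 477 CPM in sorted MPC and 2.81 ± 1.75 CPM in sorted myoblasts, and 929.7 ± 9.53 CPM in bulk MPC against 85 ± 79.3 CPM in bulk myoblasts (log2 fold change 8.64 ± 0.77 sorted and 3.49 ± 0.60 bulk, edgeR adjusted p = 1.71e-06 and 2.57e-04). Klf14, a maternally expressed transcription factor, averaged 6.94 ± 3.31 CPM in sorted MPC and 0.102 ± 0.0808 CPM in sorted myoblasts (6.01 ± 0.70, adjusted p = 1.54e-05). Axl, a receptor tyrosine kinase, averaged 32 ± 17.3 CPM in sorted MPC and 742 ± 54.9 CPM in sorted myoblasts (-4.52 ± 0.52, adjusted p = 1.56e-05), and fell in bulk MPC as well (-5.09 ± 0.54, adjusted p = 6.01e-06). Osbpl5, named after its values were seen, also fell in both (-1.85 ± 0.13 and -0.80 ± 0.12, edgeR adjusted p = 1.65e-07 and 1.07e-04). The further genes were not counted by parental class.

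Of 17 genes that set, keep or remove imprints, 16 were tested and Dnmt3l, the cofactor of new methylation in germ cells, had no count in any library. In sorted MPC 9 of the 16 rose and 1 fell, and in bulk MPC 4 rose and 7 fell, with medians of 0.43 and -0.41. Among all genes, 26% were higher and 22.7% lower in sorted MPC, and 28.4% and 30.1% in bulk MPC. Dnmt3a, a DNA methyltransferase of new sites, rose in sorted MPC (2.40 ± 0.24, edgeR adjusted p = 4.17e-06) and in bulk MPC (1.97 ± 0.23, adjusted p = 1.41e-05), as did Tet1, which oxidises 5-methylcytosine (2.05 ± 0.19 and 1.67 ± 0.19, adjusted p = 2.51e-06 and 1.03e-05). Zfp57, the zinc-finger protein that protects imprints, fell in both (-2.02 ± 0.29 and -1.77 ± 0.29, edgeR adjusted p = 9.64e-05 and 1.77e-04). Dnmt1 and Uhrf1, which copy methylation at replication, were at 0.26 ± 0.21 and 0.19 ± 0.32 in sorted MPC, where neither passed, and fell in bulk MPC (-1.29 ± 0.22 and -1.42 ± 0.33, adjusted p = 2.33e-04 and 0.00229). Mki67 fell beside them in bulk MPC (-0.97 ± 0.38, edgeR adjusted p = 0.0415), and the part of proliferation in their values was not tested. DNA methylation was not analysed here.

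The high-passage sorted MPC library was above the range of the 3 sorted MPC libraries in 7 of the 29 tested genes and below it in 17, where it was above in 26.3% and below in 25.9% of all 15533 genes. Dlk1 had 1575 CPM in it, 3.28 times the highest sorted MPC library. Nnat had no count in the high-passage library, against 124 to 302 CPM in sorted MPC. Zdbf2 was at 5.62 CPM in the high-passage library and 72.4 to 112 CPM in sorted MPC, Grb10 at 174 against 769 to 1093 CPM, and Mest at 415 against 1611 to 2399 CPM. Snrpn had 3 counts (0.131 CPM) in the high-passage library, against 1.51 to 14.8 CPM in sorted MPC. Igf2r, H19 and Peg10 were within the range. The library has no replicate, and its donor line, passages and sort history differ from those of the sorted MPC at once.

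**Figure D5:**
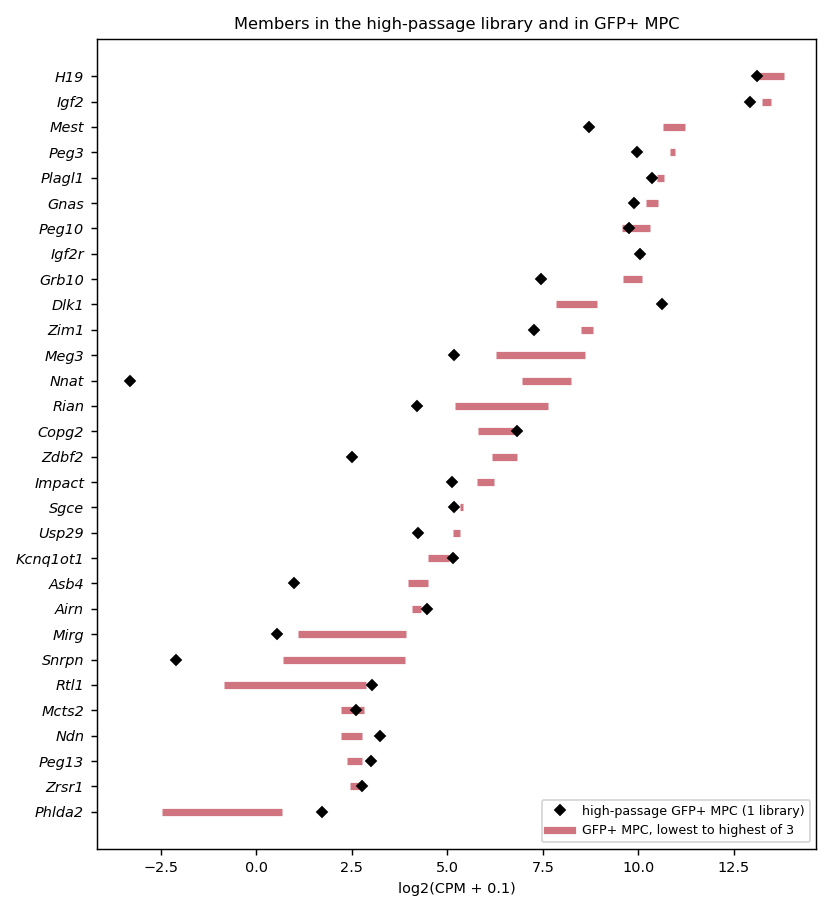
Levels of 30 imprinted genes in the high-passage sorted MPC library and in the 3 sorted MPC libraries, as log2(CPM + 0.1), with a diamond for the single library and a bar over the range of the 3. Dlk1 lies above the sorted MPC range, and Nnat, Zdbf2, Snrpn, Asb4 and Grb10 lie below it.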

How the data were processed

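The deposited files hold, per the file headers, an estimated count, a TPM, a length and an effective length (an other unit) for each transcript in each of 16 libraries. Per the submitters' processing notes, the authors used fastp 0.20.0, kallisto 0.46.1 and the build GRCm39. The kit selected poly(A) RNA and kept the strand, and reads were single-end, per the labels. The strand setting of the counting is not given in the sources used here. Estimated counts were summed per gene with GENCODE M21 (GRCm38, used for names, types and chromosomes, since the builds differ; 1059 of 121798 transcripts did not match and were left out) and rounded. The deposited TPM served to compare genes per length and for 1 alternative.

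A single fit with edgeR 4.0.16 (R 4.3.3) held 15 libraries and 5 group terms, used TMM scaling and gave quasi-likelihood tests. filterByExpr first removed genes with few reads (settings: count 10, total 15). This left 15533 genes and 10 residual degrees of freedom, with a common dispersion of 0.047. The Benjamini-Hochberg adjustment ran over every gene in that fit, and calls needed an adjusted p under 0.05. The SE of a log2 fold change comes from its F statistic. The test was run on simulated data first. A fold against a group without counts is given as at least the fold against 3 counts summed over its libraries. No 2 libraries were duplicates (chi-square per degree of freedom 10.6 to 64.1), and P values measure only the spread between these libraries. Promoter and microRNA sequences are from RefSeq (GRCm38.p6).

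The imprinted genes and the other lists were chosen with earlier results of these data known. All 33 genes could be named. Of another list, up to 3 genes per direction with the largest changes past the threshold could be named, and any gene of the muscle state and imprint lists. Same-numbered libraries of bulk MPC and bulk myoblasts deviated together from their group means (correlations 0.13 to 0.161 for the 3 pairs), so these numbers were tried as pairs, without support in the labels. Some libraries with different numbers correlated as much (0.163 for sorted MPC replicate 2 and bulk myoblast replicate 3), so the correlations do not establish pairs. Alternatives were DESeq2 1.42.0, RLE factors, no filter, length-scaled counts, only the groups compared, a replicate block and leaving out each library.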

Additional observations from a re-analysis of the deposited data

Results flagged for a closer look

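For 11 of the 29 tested genes, the MPC effect in sorted cells (sorted MPC against sorted myoblasts) differed from that in whole cultures (bulk MPC against bulk myoblasts) by the test of the difference itself (edgeR, adjusted p under 0.05). The log2 difference was 5.01 for Nnat (5.86 without bulk MPC replicate 1), 3.73 for Mest, 2.45 for Plagl1, 2.37 for Dlk1, 1.91 for Zdbf2, 1.73 for Igf2r, 1.68 for Airn, 1.64 for Kcnq1ot1, 1.01 for Impact and 0.87 for Sgce. For Peg10 it was -1.86, the rise being smaller in sorted cells. Mest and Plagl1 rose in sorted cells and fell in whole cultures. Dlk1, Zdbf2, Igf2r and Airn rose in both and more in sorted cells, and their levels in sorted myoblasts were below those in bulk myoblasts. The call of Dlk1 was lost in 5 of the 12 fits that leave out a library (edgeR adjusted p 0.0573 to 0.0693), those without replicates 1 and 2 of bulk myoblasts, replicate 3 of sorted myoblasts or bulk MPC, or replicate 1 of sorted MPC. The call of Sgce was lost in 7 of 12 (edgeR adjusted p 0.0504 to 0.0866), those without replicate 1 of sorted MPC, or replicates 1 and 2 of sorted and of bulk myoblasts, or replicates 1 and 3 of bulk MPC. Sort kit, medium and passage cannot be told apart from the groups in this contrast.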

How the results depend on the processing

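Every comparison was refitted with DESeq2, with RLE factors, without the filter, with length-scaled counts, with only the groups compared, with the replicate block and without each library in turn. With all libraries, counts of called genes moved by over 1.5 times in 4 cases: with only the groups compared, 2 genes fell in sorted MPC against sorted myoblasts, 4 were lower in bulk MPC than in differentiated myoblasts and 2 were higher in sorted than in bulk myoblasts, and without the filter 5 rose in differentiated myoblasts. Without a single library, 16 to 19 genes were called higher and 3 to 4 lower in sorted MPC against sorted myoblasts, 12 to 14 and 4 to 5 in bulk MPC against bulk myoblasts, 4 to 6 and 5 to 8 in differentiated myoblasts, 12 to 14 and 2 to 4 in bulk MPC against differentiated myoblasts, 6 to 8 and 9 to 10 in sorted against bulk MPC, 1 to 2 and 6 to 9 in sorted against bulk myoblasts, and 8 to 10 and 1 to 2 for the difference of the MPC effects. Of these, the counts for differentiated myoblasts, the lower count against them, the higher count of sorted myoblasts and the lower count for the difference moved by over 1.5 times. Such fits have fewer samples. With all libraries, 20 values of single genes lost the call and 16 gained it.

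The sign turned in few cases, for values near 0 or with an uneven library, and for Gnas with length-scaled counts, where the turned values passed the test. H19 in sorted MPC against sorted myoblasts was -0.0084 with DESeq2 or RLE factors, -0.0515 with only the groups compared and -0.21 to 0.16 over the fits without a library. Over those fits, Impact there was -0.34 to 0.15, and Rian in differentiated myoblasts against bulk myoblasts was -0.0117 to 1.74, the lowest without replicate 3 of differentiated myoblasts. Ndn was -2.54 to 0.21 in bulk MPC against differentiated myoblasts, and -1.43 to 1.32 in sorted against bulk MPC and -1.81 to 0.94 in the difference of the effects, the highest of these without bulk MPC replicate 1. Meg3 and Mirg in differentiated myoblasts against bulk myoblasts were -0.56 to 1.47 and -0.60 to 1.35, Zim1 there -0.10 to 0.20, Dlk1 in sorted against bulk MPC -0.20 to 0.52, Peg3 and Snrpn in bulk MPC against bulk myoblasts -0.0297 to 0.14 and -0.23 to 0.38, and Meg3 in the difference of the effects -0.57 to 0.53. Without the filter, Peg3 in bulk MPC was -0.0119 and Zim1 in differentiated myoblasts -0.0498. Zim1 was -0.0032 and Meg3 in the difference -0.25 with the replicate block, and Meg3 in the difference -0.17 with length-scaled counts. With length-scaled counts, Gnas was -0.29 in bulk MPC against differentiated myoblasts, 0.51 in sorted against bulk MPC and 0.56 in the difference of the effects. Each of these passed (edgeR adjusted p = 0.0323, 5.1e-04 and 0.00801), whereas the main values of 0.20, -0.13 and -0.01 did not. The difference of the effects of Gnas was 0.0206 without the filter and -0.12 to 0.0548 over the fits without a library. With DESeq2, Dlk1 was -1.75 in differentiated myoblasts (adjusted p = 0.0567) and 2.36 in the difference of the effects (adjusted p = 0.084).

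The labels do not say what the shared replicate numbers mean. Same-numbered libraries of different groups correlated at -0.165 to 0.21 in their deviations from group means (30 pairs, 8 over 0.1), and 10 of 15 libraries correlated best with their own number, a hint from the data. Differently numbered libraries reached like values, as sorted MPC replicate 2 with bulk myoblast replicate 3 (0.163) and sorted MPC replicate 3 with bulk myoblast replicate 2 (0.158). All 3 same-numbered pairs were over 0.1 for bulk MPC and bulk myoblasts and for no other 2 groups. With a block in a fit of those groups alone, chosen after seeing the data, 16 genes rose and 6 fell, and no other call than those of Sgce and Peg13 changed. The call of Peg13 was also gained in the fit of those groups without the block (-0.45, edgeR adjusted p = 0.0107). With the replicate block in the fit of all groups, 19 genes rose and 4 fell in sorted MPC, and 5 calls were lost: Snrpn and Asb4 in differentiated myoblasts (1.28 and 0.92), Asb4 and Copg2 in bulk MPC against differentiated myoblasts (0.92 and 0.62) and H19 in sorted against bulk myoblasts (-0.59).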
